A study of Mus musculus with 6 samples.

Results

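Kainate receptors are the ionotropic glutamate receptors built from the 5 Grik subunits, and the Neto proteins are their transmembrane auxiliary subunits. These 7 genes, Grik1 to Grik5, Neto1 and Neto2, were measured here on arrays of hippocampal granule cell RNA. Every probe set whose annotation holds exactly 1 gene symbol, that symbol being one of the 7, was taken on all arrays. This gave 14 probe sets of 45037 on the array, with control probe sets left out. Grik1, Grik2 and Grik3 had 2 probe sets each, Grik4 and Grik5 had 1, and Neto1 and Neto2 had 3.

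The study set transgenic mice, described as overexpressors of the neuronal RNA-binding protein HuD, against control mice. RNA of hippocampal cells that the labels call DGCs, read here as dentate granule cells, was hybridised to 6 Affymetrix mouse arrays. Transgenic mouse 1 has 1 array and transgenic mouse 2 has 2 arrays, and control mouse 1 and control mouse 2 likewise. The titles of transgenic mouse 1, transgenic mouse 2 array 1 and control mouse 1 carry the tag re-LCM, and the second of these also the word block, neither of which the labels explain. Strain, age, sex, the promoter of the transgene and the genotype of the controls beyond the word control are not given in the labels. Both arrays assigned to control mouse 2 are described that way, although their titles number them control 1 and control 2, and the descriptions were followed.

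GluK1, GluK2 and GluK3, the products of Grik1, Grik2 and Grik3, form channels on their own. GluK4 and GluK5, of Grik4 and Grik5, bind kainate with higher affinity and need one of the first group to make a working channel. Neto1 and Neto2 bind these receptors and change their gating. In the hippocampus kainate receptors are best known at the mossy fibres, the axons of granule cells, where they act before the synapse and on the pyramidal cells of CA3.

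Values are linear intensities of a probe set as deposited, each array scaled to the same trimmed mean of 150. Intensities under a floor of 10.1, the 25th percentile of all values, have no order and were raised to it before log2 was taken. Differences are log2 of transgenic minus control, from limma on 2 mice per group with the arrays of a mouse averaged. A gene was tested through its probe set of highest mean, if that mean lay above the median of all probe sets (log2 4.92, an intensity of 30.3). This left 14678 items, 11138 of them with a gene symbol and the rest probe sets with no symbol or several, all called tested genes here. Of the 14 probe sets 8 passed this filter. The other 6 were at or under the floor on at least 1 array. Grik2, Grik3, Grik4, Grik5, Neto1 and Neto2 were tested, and Grik1 was not. Different probe sets bind with different strength, so levels are compared only across arrays of 1 probe set, never between genes.

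The arrays as a whole were alike, with Pearson's r across tested genes from 0.959 to 0.973. All 6 listed granule cell markers but Sema5b, which read 8.99 to 62.9, were above the floor on every array. The brightest, desmoplakin (Dsp), read 6366 to 7845 on the transgenic and 7009 to 9391 on the control arrays. Of the 6 granule cell markers 4 had lower means in transgenic mice (median difference -0.14). Elavl4, which encodes HuD, was not higher in transgenic mice at its brightest probe set, with intensities of 79.4, 93.3 and 60.1 on the transgenic and 122, 92.8 and 63.7 on the control arrays. The difference at this probe set, 1 of 3 for Elavl4, was -0.33 (95% interval -1.03 to 0.37). The other Elavl4 probe sets are not reported here. Whether Elavl4 probe sets match the transgene's transcript was not examined, so these values do not check the labels.

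The brightest probe sets of Grik2, Grik3, Grik5 and Neto1 varied 1.28-fold to 1.52-fold over the 6 arrays, those of Grik4 and Neto2 varied 4.21-fold and 3.48-fold, and both Grik1 probe sets were under the floor on some arrays. None of the 6 tested genes differed between transgenic and control mice past the threshold (limma, adjusted p = 0.999 for each). Across all 14678 tested genes the share called was 0%, so the count of 0 among 6 says nothing particular to this family. At an unadjusted p under 0.05 there was 1 member, Neto2, against 4.31% of all tested genes. The 3 transgenic and 3 control arrays overlapped for every tested member, where 8.07% of tested genes did not overlap (3.86% higher and 4.22% lower).

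**Figure D1:**
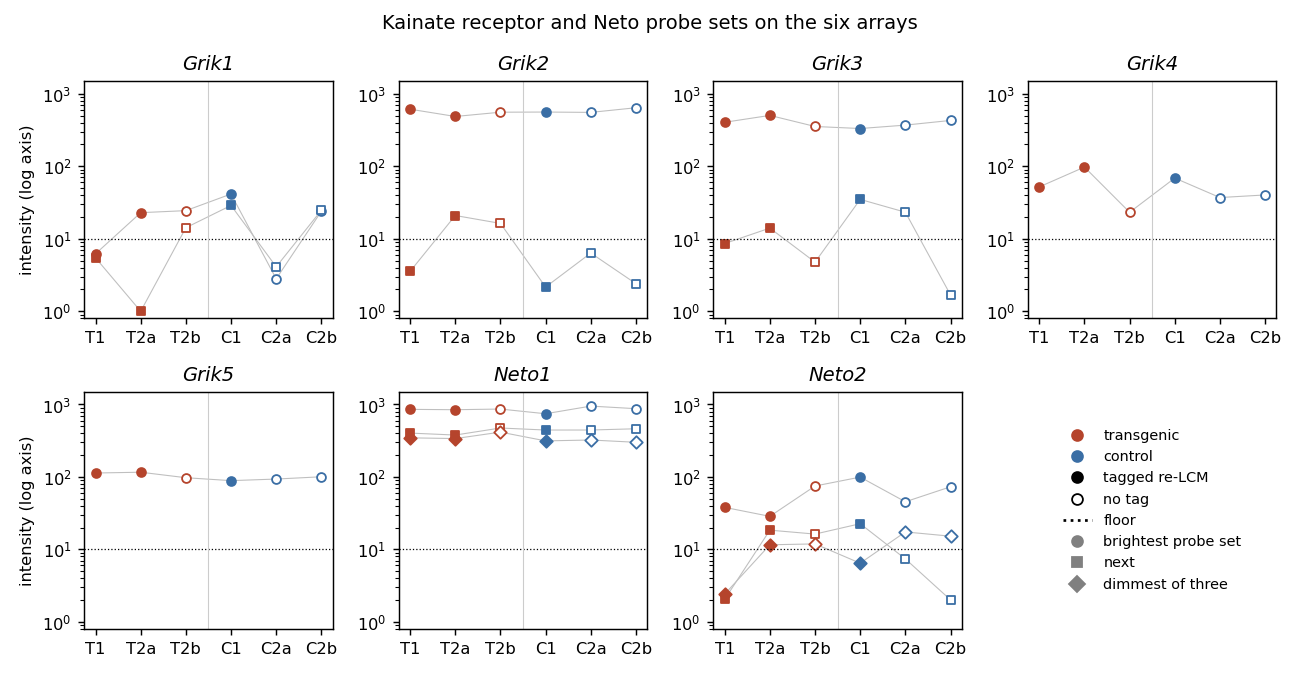
Intensity (log axis) of all 14 probe sets on each array: T1, T2a and T2b are transgenic mouse 1 and arrays 1 and 2 of transgenic mouse 2, and C1, C2a and C2b are the control arrays in the same order. Symbols mark the probe sets of a gene by brightness, filled symbols the tag re-LCM, and the dotted line the floor of 10.1, under which values have no order. The brightest probe sets of Grik2, Grik3, Grik5 and Neto1 vary at most 1.52-fold, while Grik4 and Neto2 spread 4.21-fold and 3.48-fold over the arrays.

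The core subunit genes come first. Grik2, whose product GluK2 is a main subunit of mossy fibre receptors, had intensities of 613, 486 and 557 on the transgenic arrays (mouse 1, mouse 2 array 1, mouse 2 array 2), against 560, 554 and 642 on the control arrays. The groups overlapped, and the highest array was 1.32 times the lowest. The mean log2 level was 9.14 ± 0.17 in transgenic and 9.17 ± 0.064 in control mice (SD, n = 2 each), a difference of -0.033 (SE 0.17, 95% interval -0.48 to 0.42). In fold terms that interval runs from 0.716 to 1.33. A second Grik2 probe set read 3.54, 20.9 and 16.3 on the transgenic and 2.15, 6.35 and 2.39 on the control arrays. It was above the floor only on the arrays of transgenic mouse 2, and its difference was 0.44 (95% interval -0.84 to 1.71), with all control arrays raised to the floor.

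Grik3 encodes GluK3, a subunit of low glutamate sensitivity found at presynaptic sites. Its intensities were 404, 503 and 354 on the transgenic arrays, against 332, 370 and 429 on the control arrays. The highest value was that of transgenic mouse 2 array 1 and the lowest that of control mouse 1, with overlap between the groups. Mean log2 levels were 8.69 ± 0.044 in transgenic and 8.51 ± 0.19 in control mice (SD, n = 2 each), a difference of 0.19 (SE 0.17, 95% interval -0.27 to 0.64). The arrays of transgenic mouse 2 alone differed by 0.51. The second Grik3 probe set read 8.59, 14.0 and 4.75 on the transgenic arrays and 34.9, 23.2 and 1.67 on the control arrays. Its difference of -1.08 (95% interval -2.85 to 0.69) has the opposite sign, with 3 of 6 arrays at or under the floor.

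Grik1 encodes GluK1, the subunit best known from hippocampal interneurons. Its brighter probe set read 6.19, 22.9 and 24.4 on the transgenic arrays, against 41.4, 2.80 and 23.9 on the control arrays. The other read 5.45, 0.997 and 14.2 on the transgenic and 28.8, 4.10 and 24.7 on the control arrays. Control mouse 1 gave the highest value of both, and both were at or under the floor on transgenic mouse 1 and control mouse 2 array 1. With all 45037 probe sets in 1 limma fit the differences were -0.72 (95% interval -3.45 to 2.01) and -0.96 (-2.28 to 0.36), with adjusted p = 0.897 and 0.868. Grik1 was above the floor on some arrays of both groups, and a difference between the groups was not detectable at these intensities.

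Of the high-affinity subunits, Grik5, for GluK5, read 113, 116 and 97.6 on the transgenic arrays, against 89.0, 93.6 and 101 on the control arrays. Only transgenic mouse 2 array 2 and control mouse 2 array 2 crossed, and all 6 values lay within a 1.31-fold range. Mean log2 levels were 6.78 ± 0.063 in transgenic and 6.54 ± 0.089 in control mice (SD, n = 2 each), a difference of 0.24 (SE 0.16, 95% interval -0.17 to 0.66). The 1.18-fold ratio did not pass the test (limma, unadjusted p = 0.190, adjusted p = 0.999). The log2 difference stayed between 0.18 and 0.31 when any 1 mouse, or any 1 array of mouse 2, was left out. Within the tagged arrays it was 0.37 and within the untagged arrays 0.0090.

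Grik4, for GluK4, which in the hippocampus is known mainly from CA3 pyramidal cells and granule cells, read 51.9, 97.4 and 23.2 on the transgenic arrays. On the control arrays it read 68.7, 37.0 and 40.2. The arrays of transgenic mouse 2 held both the highest and the lowest of the 6 values, 2.07 log2 units apart. The group means were close, 5.63 ± 0.090 in transgenic and 5.69 ± 0.59 in control mice (SD, n = 2 each). The difference of -0.052 (SE 0.31, 95% interval -0.87 to 0.77) allows ratios from 0.546 to 1.70. Without control mouse 1 it was 0.36, and over all such omissions it ran from -0.57 to 0.47.

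Of the auxiliary subunits, Neto1, which in the hippocampus is best known from CA3 pyramidal cells, read 857, 847 and 865 at its brightest probe set on the transgenic arrays. On the control arrays it read 745, 950 and 875. The transgenic arrays lay inside the control range, and the difference was 0.055 (SE 0.18, 95% interval -0.41 to 0.52). Mean log2 levels were 9.74 ± 0.00071 in transgenic and 9.69 ± 0.21 in control mice (SD, n = 2 each).

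The remaining Neto1 probe sets, which also passed the filter, gave differences of opposite sign. One read 403, 379 and 474 on the transgenic arrays, against 444, 444 and 462 on the control arrays, a difference of -0.12 (95% interval -0.31 to 0.074 with all probe sets in the fit). The other read 347, 339 and 416 on the transgenic arrays, against 315, 324 and 301 on the control arrays, with no overlap. Its difference was 0.20 (95% interval -0.026 to 0.43). It was the 1 of 14 member probe sets whose groups did not overlap, where 7.03% of all probe sets did not. In that fit 2801 of 45037 probe sets had no spread between mice, and the intervals of steady probe sets were narrower there. With only the 22518 probe sets that passed the filter in the fit, an alternative added after the values were seen, the intervals were -0.54 to 0.30 and -0.23 to 0.63. The 3 Neto1 probe sets did not follow each other over the arrays, with Pearson's r of 0.089 to 0.122 over 6 arrays that share their scaling.

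Neto2 had the largest difference of the tested members. Its brightest probe set read 38.0, 28.6 and 75 on the transgenic arrays, against 99.5, 45.5 and 73.2 on the control arrays. The lowest values were those of transgenic mouse 1 and transgenic mouse 2 array 1, and the highest was that of control mouse 1. Transgenic mouse 2 array 2 lay above 2 of the 3 control arrays. Mean log2 levels were 5.39 ± 0.20 in transgenic and 6.24 ± 0.56 in control mice (SD, n = 2 each). The difference was -0.85 (SE 0.31, 95% interval -1.67 to -0.036), a ratio of 0.554, with limma's unadjusted p = 0.0438 and adjusted p = 0.999. It did not pass the threshold, and the interval is not adjusted for the number of genes.

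The Neto2 difference depended on the arrays compared. Within the tagged arrays (2 transgenic, 1 control) it was -1.59, and within the untagged arrays (1 transgenic, 2 control) it was 0.38. Without control mouse 1 it was -0.46 and without control mouse 2 it was -1.25. The 2 arrays of transgenic mouse 2 were 1.39 log2 units apart, which is more than the group difference. The dimmer Neto2 probe sets gave -0.19 (95% interval -2.24 to 1.86) and -0.24 (-1.31 to 0.83). One read 2.05, 18.4 and 16.3 on the transgenic and 22.6, 7.40 and 2.01 on the control arrays. The other read 2.42, 11.6 and 11.9 on the transgenic and 6.45, 17.4 and 15.2 on the control arrays. In both, arrays of both groups lay under the floor.

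**Figure D2:**
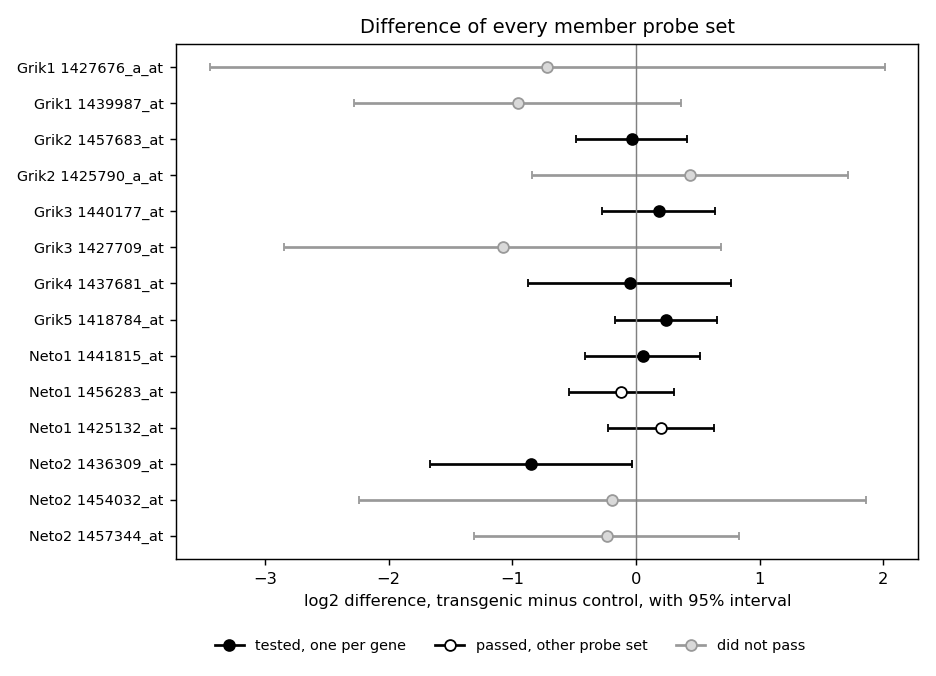
Log2 difference, transgenic minus control, of each of the 14 probe sets with its 95% limma interval (2 mice per group). Black points are the 6 tested probe sets, open points the Neto1 probe sets that also passed the filter (fit over probe sets that passed), and grey points those that did not pass (fit over all probe sets). Only the interval of the brightest Neto2 probe set, -1.67 to -0.036, leaves out 0, and it is not adjusted for the number of genes.

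Over all 14 probe sets 5 differences were above and 9 below 0. The same split over all 45037 probe sets is not given here, and probe sets of 1 gene are not independent, so these counts say nothing particular to the family. With all probe sets in the limma fit 0 of 14 had an unadjusted p under 0.05, where 6.49% of all probe sets did. In that fit the unadjusted p of the brightest Neto2 probe set was 0.109. For each of the 7 genes, the arrays of transgenic mouse 2 or those of control mouse 2 differed from each other by more than the group means did. This held for 5 of 7 genes in transgenic mouse 2 and for 5 of 7 in control mouse 2. The same shares over all tested genes are not given here, so these counts say nothing particular to the family. For Grik2, Grik3, Grik5 and Neto1 the unadjusted 95% intervals of the ratio lay between 0.716-fold (Grik2, lower end) and 1.58-fold (Grik5, upper end).

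The tag in the titles, which holds 2 transgenic and 1 control array, was fitted beside the group over 6 arrays. That fit counts repeat arrays of a mouse as separate samples, unlike the comparison of mice: 2 of the 3 untagged arrays are from control mouse 2, and transgenic mouse 2 has 1 array on each side, so its p-values may be too small. Grik4 was the member most different by tag. Its tagged arrays read 51.9, 97.4 and 68.7 and its untagged arrays 23.2, 37.0 and 40.2, a difference of 1.23 (SE 0.32). These did not overlap, but the share of all tested genes without overlap by tag is not given here. The lack of overlap therefore says nothing particular to Grik4. The direction was the same within the transgenic arrays (1.62) and within the control arrays (0.83). Among the control arrays tag and mouse cannot be told apart: the tagged array is control mouse 1 and the untagged ones are control mouse 2. The tag was not called for Grik4 (limma, unadjusted p = 0.0085, adjusted p = 0.937). It was the 1 of 6 tested members with an unadjusted p under 0.05, against 5.14% of all tested genes. The other tested members gave tag differences between -0.20 (Neto2) and 0.054 (Grik5), and that of Neto2 was -1.18 within the transgenic and 0.79 within the control arrays. The tag also moved with the ratio of 3' to 5' Actb control probe sets, a measure of RNA integrity and labelling, which was 14.8, 19.4 and 17.4 on tagged and 27.8, 22.7 and 24.2 on untagged arrays. The part of the tag and of this ratio in the Grik4 values was not tested. On every array the 3' signal was far above the 5' signal. Whether this lowered member probe sets, the dim ones among them, was not tested.

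Markers of other cells moved between arrays as well. In bulk RNA, fewer cells of a type and less RNA per cell cannot be told apart. Of the interneuron list 6 of 7 had lower means in transgenic mice, with summed intensities of 2346 to 2487 on the transgenic and 2227 to 2767 on the control arrays. Most of that sum is Gad1, the 1 interneuron marker with a higher mean (1912, 1882 and 1819 on the transgenic and 1795, 1618 and 1748 on the control arrays), and sums in general weight the brightest probe sets. All 7 oligodendrocyte markers measured, of 8 listed, had lower means, with sums of 5320 to 7898 on the transgenic and 4631 to 11386 on the control arrays. The 6 astrocyte markers also had lower means (2058 to 2945 transgenic, 2535 to 3987 control), as did 6 of 7 microglia markers (2979 to 3735 transgenic, 3168 to 4504 control). For pyramidal cells 4 of 6 had lower means (342 to 441 transgenic, 343 to 456 control), and for hilar mossy cells 1 of 3 (42.8 to 145 transgenic, 103 to 126 control). At an unadjusted p under 0.05 there were 1 of 7 interneuron, 2 of 7 microglia and 1 of 3 hilar mossy cell markers, and none in the other lists, where 6.49% of all probe sets in that fit were. Among all tested genes 7271 had lower and 7407 higher means. That count covers only genes past the filter, while the marker counts use the brightest probe set of each marker whether or not it passed. No listed marker was at or under the floor on all 6 arrays, and each sum overlapped between the groups. The array of control mouse 1, highest for Neto2 and for Grik1, was also highest in mean log2 level for oligodendrocyte (0.87 above the mean of the 6 arrays), interneuron (0.61) and astrocyte markers (0.51). That array was also highest for pyramidal cell (0.30) and microglia markers (0.20), but not for granule or hilar mossy cell markers. The array of transgenic mouse 1 was lowest for oligodendrocyte (-0.65), interneuron (-0.43), astrocyte (-0.36) and microglia markers (-0.26). The lowest Neto2 value was that of transgenic mouse 2 array 1. The part of these marker differences in the Neto2 and Grik1 values was not tested.

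**Figure D3:**
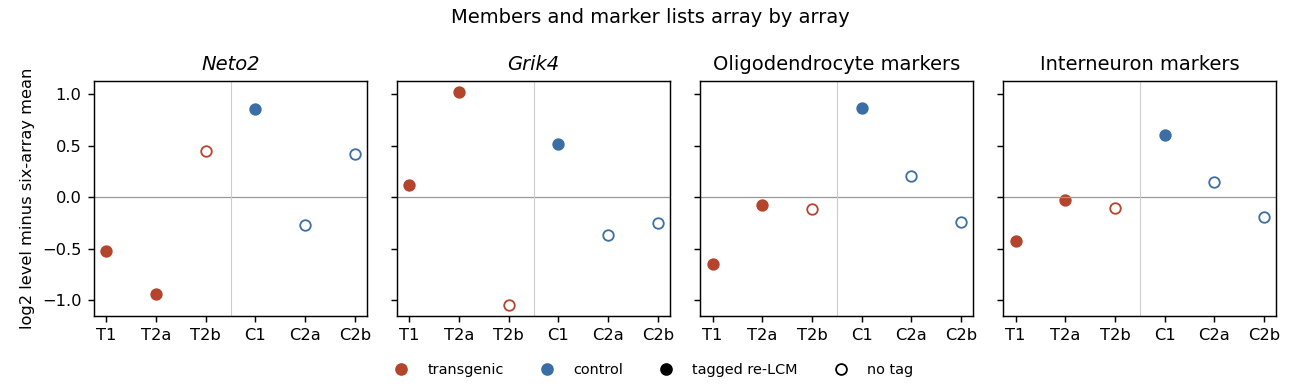
Log2 level minus the mean of the 6 arrays for Neto2, Grik4 and the mean of the oligodendrocyte and interneuron marker lists (7 genes each), by array in the order T1, T2a, T2b, C1, C2a, C2b. Red is transgenic, blue is control, and filled points carry the tag re-LCM. Neto2 and both marker lists peak on the array of control mouse 1, where astrocyte, microglia and pyramidal cell markers, not shown, were also highest. All filled Grik4 points lie above the open ones, and the share of all tested genes that do so is not given.

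Around the receptors, 23 of 26 listed partner genes were tested and 0 passed the threshold, where 0% of all tested genes passed. There were 16 higher and 7 lower means (median 0.055), against 7407 higher and 7271 lower among all tested genes (median 0.0026). None of the 23 had an unadjusted p under 0.05 (limma), where 4.31% of all tested genes did. The remaining listed partners were not analysed here. Among partners that move or modify the receptors, 8 of 10 had higher means. Senp1, a protease gene, read 54.3, 35.8 and 29.4 on the transgenic and 35.2, 14.7 and 33.9 on the control arrays (difference 0.58, SE 0.36). Kif17, a kinesin that carries receptors into dendrites, read 243, 171 and 152 on the transgenic and 151, 173 and 172 on the control arrays (0.29, SE 0.25). The groups of both genes overlapped.

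Both RNA-editing enzymes had higher means without passing. Adarb1 encodes ADAR2, an enzyme that edits the pore site of kainate receptor mRNAs. It read 88.4, 103 and 89.8 on the transgenic and 57.4, 90.8 and 73.3 on the control arrays, a difference of 0.43 (SE 0.23, limma unadjusted p = 0.120). Editing itself cannot be read from these arrays. Of the scaffolds 4 of 6 had higher means. Dlg1, or SAP97, read 940, 936 and 954 on the transgenic and 1135, 956 and 965 on the control arrays, with a small difference of -0.15 (SE 0.17) but no overlap. Of the adhesion and recruitment genes 2 of 5 had higher means. C1ql2, a secreted protein of mossy fibre synapses that recruits kainate receptors and also served as a granule cell marker, read 829, 641 and 632 on the transgenic and 706, 651 and 659 on the control arrays. Its relative C1ql3 read 6437, 5433 and 5726 on the transgenic and 6342, 6779 and 6292 on the control arrays. The differences were 0.096 (SE 0.20) for C1ql2 and -0.10 (SE 0.17) for C1ql3, both named here as mossy fibre genes outside the naming rule and after their values were seen. Of the 23 partners 2 did not overlap between groups, where 8.07% of tested genes did not overlap in either direction. These were Dlg1 and Ctnnb1, both lower, where 4.22% of tested genes were lower without overlap. Ctnnb1, or beta-catenin, also named after its values were seen, read 6037, 5605 and 6346 on the transgenic and 6363, 6785 and 6684 on the control arrays (-0.13, SE 0.15).

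Of 13 other ionotropic glutamate receptor genes listed, 8 were tested, 5 with higher and 3 with lower means (median 0.10). Of the 8, 0 passed the threshold or had an unadjusted p under 0.05 (limma). Among all tested genes 0% passed the threshold and 4.31% had an unadjusted p under 0.05. The AMPA subunit gene Gria3 had 0.31 (SE 0.15), Gria1 0.12 (SE 0.17), the NMDA subunit gene Grin2b -0.31 (SE 0.18) and the delta receptor gene Grid1 0.34 (SE 0.22). Grin2b alone of the 8 did not overlap, with intensities of 495, 594 and 560 on the transgenic and 613, 741 and 690 on the control arrays. Of all tested genes 8.07% did not overlap in either direction, and 4.22% were lower without overlap. The 6 kainate and Neto genes split into 3 higher and 3 lower means, with a median of 0.011. Their median absolute difference was 0.12, against 0.14 for the 8 other receptor genes and 0.15 for all tested genes. These counts describe the lists and were not tested against each other.

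**Figure D4:**
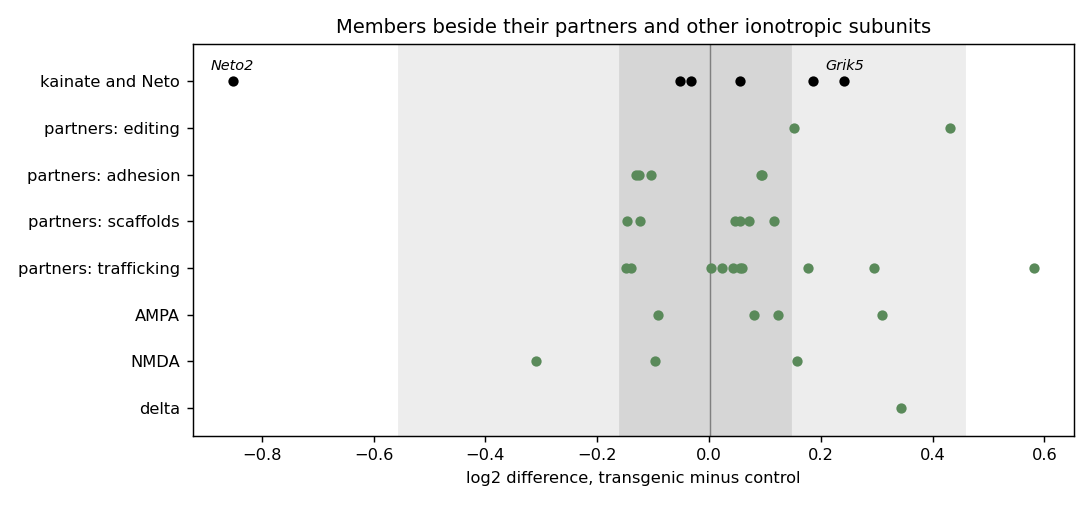
Log2 difference, transgenic minus control, of the 6 tested kainate and Neto genes (black), the 23 partners by role and the 8 other ionotropic receptor genes (green). The dark band holds the middle of all 14678 tested genes (25th to 75th percentile, -0.16 to 0.15), and the light band runs from the 5th to the 95th percentile (-0.56 to 0.46). Neto2 lies below the light band at -0.85, Senp1 lies above it at 0.58, and no point passed the test.

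Among themselves the members did not share 1 pattern over the arrays. Over the 6 arrays, which share their scaling and include pairs from 1 mouse, Pearson's r between tested members ran from -0.82 (Grik5 and Neto2) to 0.85 (Grik3 and Grik5). The genes most like each member over the same arrays lay outside the family. Among 11137 other named genes, Map4k5, a kinase gene (r = 0.996), and Smc4, of the condensin complex (0.980), were closest to Grik2. Entpd3, an ectonucleotidase gene (0.997), and Sp7 (0.995) were closest to Grik3. Tmod1, which caps actin filaments (0.994), and Trpm2, a cation channel gene (0.990), were closest to Grik4. Ccdc137 (0.994) and Rrnad1 (0.992) were closest to Grik5. Emd, for the nuclear envelope protein emerin (0.993), and Dnah9, an axonemal dynein gene (0.981), were closest to Neto1. Adam23 (0.990) and 4930445K14Rik (0.986) were closest to Neto2. Between 21 and 31 genes had an r over 0.95 with each member, and with 6 arrays such values are a description of likeness only.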

How the data were processed

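The deposited table holds linear probe set intensity values that the authors scaled, since the 2% trimmed mean is 150.001 on each array. Which program made them, and with what background correction, is not given in the sources used here. With 6 arrays, their number limits the precision. Control probe sets (64) entered no fit. Of the other 45037, 34945 have 1 gene symbol in the platform annotation, 932 several and 9160 none. All 14 member probe sets matched RefSeq symbols through their Entrez identifiers.

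Values were floored at 10.1, log2 was taken, and arrays of a mouse were averaged. The groups were compared by limma 3.58.1 under R 4.3.3, using lmFit and then eBayes (2 residual and 2.70 prior degrees of freedom, Benjamini-Hochberg over 14678 tested genes, threshold 0.05). Values of member probe sets below the filter come from 1 fit over all 45037. The fit was run on simulated data with independent arrays and no mouse effect, so that run does not check the p-values of the comparison of mice. Nothing says whether the mice came from separate litters, and with 2 mice per group p-values measure a spread known poorly.

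Members and lists were chosen with earlier results of these data known. The naming rule takes all members, the 4 partners and the 4 other receptor genes of smallest p, and the 2 genes most correlated with each tested member. Alternatives changed normalization, floor, filter, probe set rule, replication unit, tag, block, variance model, mice and arrays.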

Additional observations from a re-analysis of the deposited data

How the results depend on the processing

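No member passed the threshold in any of the 18 settings that gave a count (limma), and no partner in any of 6. In the reported comparison 0% of all 14678 tested genes passed, so a count of 0 says nothing particular to the family. The shares over all tested genes in the other settings are not given here. Of 139 recomputed member differences 120 kept their direction and 19 turned. Within the untagged arrays alone, the differences were 0.65 for Grik1, -0.17 for Grik3, -0.74 for Grik4, 0.0090 for Grik5, -0.076 for Neto1 and 0.38 for Neto2. Within the tagged arrays alone they were -1.45 for Grik1, 0.44 for Grik3, 0.050 for Grik4, 0.37 for Grik5 and -1.59 for Neto2. With the mouse as a random block they were 0.071 for Grik1, 0.17 for Grik4 and -0.037 for Neto1, and Neto2 was -0.52 (limma, unadjusted p = 0.114). That fit put the correlation between arrays of a mouse at -0.537, not above 0 as a shared mouse effect would. A negative value gives mouse 2 of each group, which has 2 arrays, more weight. Grik4, -0.052 as reported, was 0.054 after quantile normalization, 0.093 with the floor at the median intensity and 0.066 with 6 arrays as separate samples. Leaving out a mouse or an array gave -0.15 to 0.085 for Grik2, -0.57 to 0.47 for Grik4 and -0.091 to 0.20 for Neto1. Grik1 was -0.0092 without control mouse 1, -0.10 without transgenic mouse 1, -1.33 without transgenic mouse 2 and -1.43 without control mouse 2. Grik3 was 0.053 without control mouse 1, 0.058 without transgenic mouse 2 array 1, 0.31 without transgenic mouse 2 array 2 and 0.32 without control mouse 2. The causes were not tested. Neto2 ran from -1.25 to -0.46 over these omissions, and its unadjusted p was under 0.05 in 7 of 18 settings with a test. With the mouse number as a replicate block the Neto2 difference was -0.85 (limma, adjusted p = 0.960), and no call changed. Mice that share a number share no source by the labels, and their deviations correlated at 0.0332 across genes. Leaving out a mouse left 1 mouse in its group, which was assumed to vary like the rest. Signal near the floor limits Grik1 and the dim probe sets.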
